A study of Homo sapiens with 6 samples.

Results

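Matrix metalloproteinases (MMPs) and their tissue inhibitors (TIMPs) were examined in human proximal tubule cells exposed to Cisplatin, with and without silencing of the RNA acetyltransferase NAT10. The members were 7 MMP genes (MMP1, MMP2, MMP7, MMP9, MMP10, MMP14 and MMP19) and 3 TIMP genes (TIMP1, TIMP2 and TIMP3), 10 of the 62754 genes in the deposited count table, found there by gene name. The cells were HK-2, an established epithelial line derived from human proximal tubule. The control group, CP+siNC, received Cisplatin, a platinum drug that injures tubular cells, and a negative control siRNA. The other group, CP+siNAT10, received Cisplatin and siRNA against NAT10. Both groups carried the drug, so no library shows these genes without it. The labels state neither dose nor duration of Cisplatin, while the study's methods give both for its HK-2 experiments. Each group had 3 libraries of stranded mRNA, with total counts of 19321665, 21602988 and 19464027 in CP+siNC and of 20793709, 21531774 and 25192736 in CP+siNAT10. Whether the 3 libraries of a group came from separate cultures is not stated, and p-values therefore measure the spread between these libraries, which may be technical.

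MMPs are zinc-dependent endopeptidases that cut collagens, laminins, fibronectin and many cell-surface proteins. They are made as inactive precursors whose activity is held back by a propeptide and, after activation, by TIMPs, which bind the active site. In kidney, tubular epithelium is a known source of MMP7, and the balance of proteases and inhibitors is linked to the turnover of tubular basement membrane after injury.

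NAT10 itself was measured at 75.8, 71.4 and 73.2 CPM (counts scaled to library size, with sizes adjusted by the TMM method) in CP+siNC and at 41.3, 40.5 and 42.4 CPM in CP+siNAT10. The groups did not overlap, and the silenced libraries held 56.5% of the amount in controls. On the log2 scale the change, CP+siNAT10 against CP+siNC, was -0.82, SE (standard error) 0.0426 (edgeR quasi-likelihood test, Benjamini-Hochberg adjusted p = 2.79e-15). Folds and percentages of control, for this and all other genes, are the fitted log2 fold change on a linear scale, and they can differ slightly from the ratio of the mean CPM values.

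Of the 10 members, 7 had at least 10 counts in at least 3 libraries, and the same 7 entered the test. MMP1 and MMP7 rose with NAT10 siRNA, MMP9 and MMP19 fell to less than 50% of control, MMP14 fell slightly, TIMP2 rose slightly and TIMP1 was not called. Thus 3 members rose and 3 fell at an adjusted p under 0.05 in edgeR. Over all 19874 genes tested, 21.8% were called higher and 22.3% lower, 44.1% in either direction, so a call in this comparison was common. With the added limit of a log2 fold change over 1 in size, 2 members were higher and 2 lower, where 0.951% of all genes tested were higher and 1.38% lower. In 6 of the 7 the CPM values of the groups did not overlap, as was the case for 51.4% of all genes tested. The median log2 fold change of the 7 was -0.0026, beside 0.0070 over all genes tested, since rises and falls were mixed. The 3 low members, MMP2, MMP10 and TIMP3, are described by their counts.

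**Figure D1:**
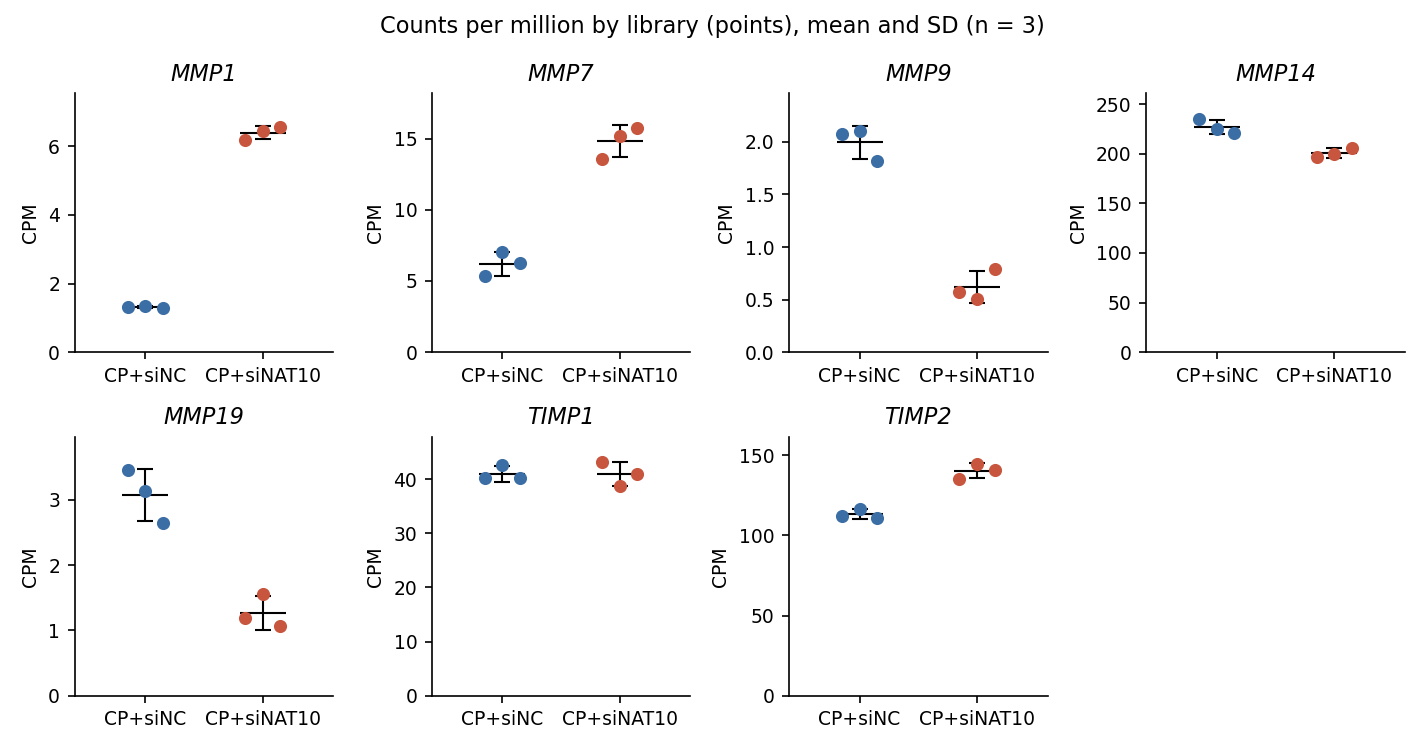
CPM of the 7 members with at least 10 counts in at least 3 libraries, by group. Each point is a library, and the line and bars give the mean and SD (n = 3), with every vertical axis starting at 0. MMP1, MMP7 and TIMP2 sit higher in every CP+siNAT10 library, MMP9, MMP14 and MMP19 sit lower, and TIMP1 overlaps.

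MMP1, the interstitial collagenase, cuts the triple helix of fibrillar collagens. It is encoded on the minus strand of chromosome 11 (ENSG00000196611, GRCh38, from 102789401 to 102798160). It had 25, 29 and 25 counts in CP+siNC, or 1.33, 1.35 and 1.30 CPM. In CP+siNAT10 it had 130, 141 and 166 counts, or 6.17, 6.45 and 6.55 CPM. All 3 silenced libraries lay far above the controls, and the spread within either group was small beside the gap. The mean of MMP1 rose from 1.33 ± 0.0283 to 6.39 ± 0.194 CPM (n = 3 per group, SD), a 4.80-fold rise. The log2 fold change was 2.26, SE 0.146 (edgeR quasi-likelihood test, adjusted p = 3.51e-13). By the size of the rise, MMP1 stood at place 2 of the 19874 genes tested. Against a fold change of 2 as the null value, in edgeR's glmTreat, its adjusted p was 4.56e-07.

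MMP7, or matrilysin, is a small MMP without the hemopexin domain that most of the family carry, and it is made mainly by epithelia. Its gene (ENSG00000137673) lies on the minus strand of chromosome 11 from 102520508 to 102530750. In CP+siNC it was at 5.36, 7.05 and 6.23 CPM, from 101, 151 and 120 counts. In CP+siNAT10 it was at 13.6, 15.2 and 15.8 CPM, from 286, 332 and 400 counts. The lowest silenced library was well above the highest control library. The mean rose from 6.22 ± 0.845 to 14.9 ± 1.14 CPM (SD, n = 3 per group), 2.38-fold, with a log2 fold change of 1.25, SE 0.0952 (edgeR quasi-likelihood test, adjusted p = 1.06e-11). The estimate passed 2-fold, but a rise of more than 2-fold was not called when tested as such (glmTreat, adjusted p = 0.419).

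MMP10, or stromelysin 2, is a member of the same gene cluster and stayed near 0. It had 2, 1 and 2 counts in CP+siNC and 2, 3 and 2 in CP+siNAT10. A library of this depth shows little below 3 counts, which is between 0.118 and 0.159 CPM, and this floor covers counting error only. No fold is given, and a small difference in MMP10 could not be seen at these counts.

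The RefSeq promoter table (GRCh38.p14, 250 bases before to 50 after the start) held 5 of the 10 members, MMP7, MMP10, MMP14, TIMP1 and TIMP3. MMP1, MMP2, MMP9, MMP19 and TIMP2 were not matched. The promoters of MMP7 (chr11:102530698-102530997, minus strand) and MMP10 (chr11:102780579-102780878, minus strand) are shown, 5′ to 3′, because these members of the chromosome 11 cluster, with other MMP genes between them, match the same search patterns in nearly the same places and yet differ greatly in level. Capitals mark TGANTCA, a pattern wider than the AP-1 core (TGAGTCA or TGACTCA), and TATAAA, both searched on both strands.
MMP7: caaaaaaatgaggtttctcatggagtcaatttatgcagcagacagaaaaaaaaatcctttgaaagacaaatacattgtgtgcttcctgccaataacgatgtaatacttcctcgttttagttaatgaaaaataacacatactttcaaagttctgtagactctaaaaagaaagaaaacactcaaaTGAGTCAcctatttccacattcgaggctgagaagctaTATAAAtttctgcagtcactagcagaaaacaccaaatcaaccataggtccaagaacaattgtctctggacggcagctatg
MMP10: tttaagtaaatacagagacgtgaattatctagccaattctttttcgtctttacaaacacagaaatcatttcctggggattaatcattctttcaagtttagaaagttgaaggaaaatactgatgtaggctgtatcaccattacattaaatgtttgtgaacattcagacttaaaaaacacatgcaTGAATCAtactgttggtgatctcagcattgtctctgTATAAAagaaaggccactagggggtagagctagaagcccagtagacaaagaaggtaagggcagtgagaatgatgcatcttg

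In MMP7 the letters TGAGTCA stood from 67 to 61 bases before the start, and in MMP10 the letters TGAATCA, which are not the AP-1 core, stood at the same distance. TATAAA began 30 bases before the start in MMP7 and 31 in MMP10. The pattern TGANTCA covers the same bases on either strand and did not overlap TATAAA in either promoter. Of all 35116 promoters of this length, 7.71% held TGANTCA and 11.5% held TATAAA. The windows of MMP14, TIMP1 and TIMP3 held neither. Their GC content was 55%, 65% and 72.7%, against 35.7% in MMP7 and 36.3% in MMP10. These matches describe letters only, and binding was not measured. MMP7 rose from a measurable level, whereas MMP10, with a match to both patterns, had at most 3 counts in any library.

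MMP7, MMP10 and MMP1 belong to a cluster of 9 MMP genes on chromosome 11. From the start of MMP7 to the end of MMP13 it spans 435198 bases and 18 genes of the table. Only 3 of the 9 MMP genes had at least 10 counts in at least 3 libraries, namely MMP7, MMP1 and MMP13. All 3 were called higher in edgeR, as were 21.8% of all genes tested. MMP7 and MMP1 are members, which were chosen with earlier results of these data known. MMP13, a collagenase that prefers cartilage collagen, was at 5.95, 5.09 and 5.40 CPM in CP+siNC and at 6.22, 8.42 and 7.77 CPM in CP+siNAT10. The groups came close without overlapping, and the log2 fold change was 0.46, SE 0.115 (edgeR quasi-likelihood test, adjusted p = 0.00182). MMP3, MMP8, MMP12, MMP20 and MMP27 were as low as MMP10, with at most 4 counts summed over the libraries of either group. Genes at both ends and in the middle of the cluster were thus measurable, with low genes between them.

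The 1 other gene of the cluster above this limit was WTAPP1, a pseudogene on the plus strand (ENSG00000255282, 102746968 to 102836766) whose span covers MMP1 and MMP10 on the opposite strand. It had 21, 23 and 18 counts in CP+siNC, or 1.11, 1.07 and 0.935 CPM, and 94, 95 and 114 counts in CP+siNAT10, or 4.46, 4.35 and 4.50 CPM. It rose nearly as much as MMP1, with a log2 fold change of 2.08, SE 0.171 (edgeR quasi-likelihood test, adjusted p = 4.87e-11). In GENCODE 29, 150 of the 1970 exon bases of MMP1, 7.61%, are also exon bases of WTAPP1, and none of those of MMP10 are. The count table gives MMP1 2738 bases, so its gene model is another one, and the share of counted bases that overlap is not known. The kit marked strand, but whether counting used it is not stated. Reads of MMP1 and WTAPP1 from shared bases therefore cannot be told apart, and how much of either rise is the other gene's was not tested.

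**Figure D2:**
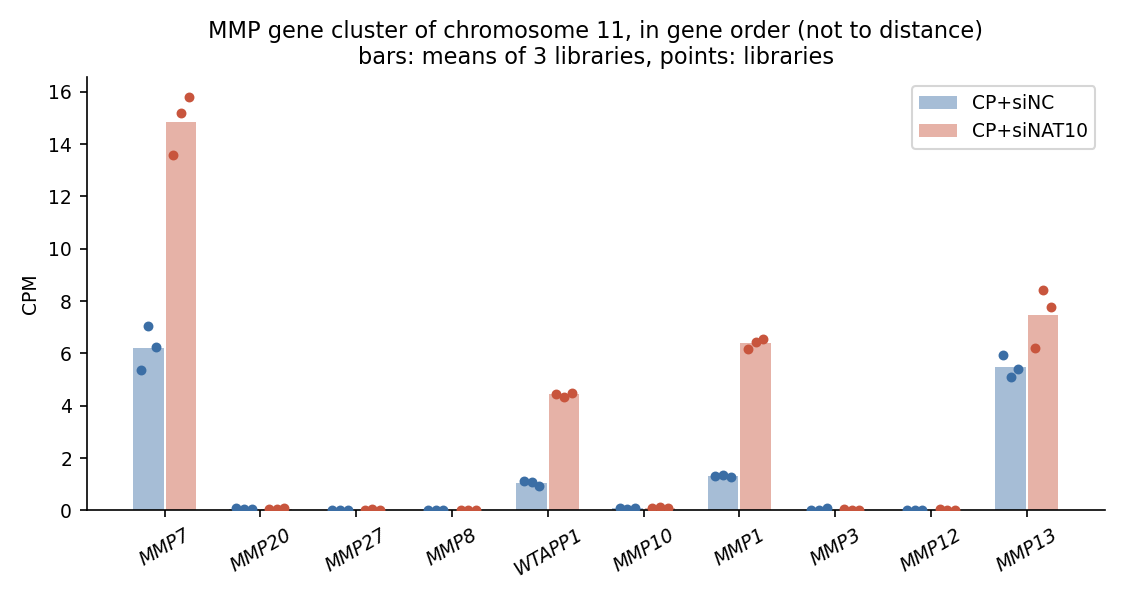
Mean CPM (bars, n = 3) and single libraries (points) of the 9 MMP genes of the chromosome 11 cluster and of WTAPP1, in order of their start and not to distance. MMP7, MMP1, MMP13 and WTAPP1 are higher in CP+siNAT10, and the other 6 genes lie near 0 in both groups.

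The gelatinases, which cut denatured collagen and basement membrane collagen, were scarce. MMP9 (ENSG00000100985, chromosome 20, plus strand, 46008908 to 46016561) had 39, 45 and 35 counts in CP+siNC, or 2.07, 2.10 and 1.82 CPM. With NAT10 siRNA it had 12, 11 and 20 counts, or 0.570, 0.503 and 0.789 CPM. Every silenced library was below every control library, at counts where a few reads matter. The mean fell from 2.00 ± 0.156 to 0.621 ± 0.149 CPM (SD, n = 3 per group), and the fitted change left 31.7% of control. The log2 fold change was -1.66, SE 0.242 (edgeR quasi-likelihood test, adjusted p = 1.82e-06). By the size of the fall MMP9 stood at place 24 of all genes tested, but a fall of more than 2-fold was not called when tested as such (glmTreat, adjusted p = 0.354). An antisense gene, SLC12A5-AS1, shares 430 of the 2336 exon bases of MMP9, 18.4%. It was at 2.24 ± 0.362 CPM in CP+siNC and 1.42 ± 0.297 CPM in CP+siNAT10 (SD, n = 3), a log2 fold change of -0.66, SE 0.205 (edgeR quasi-likelihood test, adjusted p = 0.0102), and the same doubt about strand holds. This call was lost without CP+siNC replicate 1 (adjusted p = 0.0555) or CP+siNAT10 replicate 3 (adjusted p = 0.0840) and in DESeq2 (adjusted p = 0.0573).

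MMP2, the other gelatinase (ENSG00000087245, chromosome 16), is made chiefly by stromal cells. It had 5, 7 and 6 counts in CP+siNC and 8, 13 and 7 in CP+siNAT10, sums of 18 and 28. Only 1 library reached 10 counts, and MMP2 was not tested with the other members. Its CPM values overlapped between the groups, from 0.266 to 0.327 and from 0.276 to 0.595. With no filter on low counts its log2 fold change was 0.45, SE 0.447 (edgeR quasi-likelihood test, adjusted p = 0.603). MMP2-AS1, annotated within its span on the opposite strand, had 0 counts in all 6 libraries.

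MMP19 cuts basement membrane components and is expressed in many resting tissues. Its gene (ENSG00000123342) lies on the minus strand of chromosome 12 from 55835433 to 55842960. Its values were 3.45, 3.13 and 2.65 CPM in CP+siNC, from 65, 67 and 51 counts, and 1.19, 1.56 and 1.07 CPM in CP+siNAT10, from 25, 34 and 27 counts. The groups were clearly apart. The mean fell from 3.08 ± 0.405 to 1.27 ± 0.255 CPM (SD, n = 3 per group), to 41.1% of control, with a log2 fold change of -1.28, SE 0.190 (edgeR quasi-likelihood test, adjusted p = 2.26e-06). A fall of more than 2-fold was not called when tested as such (glmTreat, adjusted p = 1), and the 95% interval of the log2 fold change ran from -1.66 to -0.91. TMEM198B, on the opposite strand, shares 814 of the 4672 exon bases of MMP19, 17.4%, and the same doubt about strand holds. TMEM198B was above MMP19 in both groups, at 6.63 ± 0.378 CPM in CP+siNC and 5.10 ± 0.227 CPM in CP+siNAT10 (SD, n = 3). Its fall was smaller, with a log2 fold change of -0.37, SE 0.107 (edgeR quasi-likelihood test, adjusted p = 0.00530).

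MMP14 is anchored in the plasma membrane, cuts collagen at the cell surface and, in a complex with TIMP2, activates the MMP2 precursor. Its gene (ENSG00000157227) lies on the plus strand of chromosome 14 from 22836560 to 22849041. It was by far the most counted member, with 4261 to 4818 counts per CP+siNC library and 4141 to 5226 per CP+siNAT10 library. The CPM values were 235, 225.1 and 221 in CP+siNC and 197, 199.8 and 206 in CP+siNAT10. The groups did not overlap, though the highest silenced library was near the lowest control library. The mean fell from 227 ± 7.10 to 201 ± 4.83 CPM (SD, n = 3 per group), to 88.5% of control. The log2 fold change was -0.18, SE 0.0341 (edgeR quasi-likelihood test, adjusted p = 9.79e-05), a small change measured on many counts.

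TIMP2 inhibits most MMPs and also takes part in the activation of MMP2 on MMP14. Its gene (ENSG00000035862) lies on the minus strand of chromosome 17 from 78852977 to 78925387. It was at 112, 117 and 111 CPM in CP+siNC and at 135, 145 and 141 CPM in CP+siNAT10. Every silenced library was higher than every control. The mean rose from 113 ± 3.19 to 140.3 ± 4.69 CPM (SD, n = 3 per group), 1.24-fold, with a log2 fold change of 0.31, SE 0.0364 (edgeR quasi-likelihood test, adjusted p = 4.66e-08). CEP295NL, which lies on the same strand within the span of TIMP2 and shares 3.52% of its exon bases, was at 3.49 ± 0.224 and 3.35 ± 0.301 CPM (SD, n = 3 per group) and was not called (log2 fold change -0.06). A further 3 genes on the opposite strand within TIMP2 that had 10 counts in 3 libraries were not called either. Of these, ENSG00000267601 shares 367 of the 5633 exon bases of TIMP2, 6.52%, and the same doubt about strand holds.

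TIMP1, an inhibitor that is secreted by many cells after injury, showed no call. Its gene (ENSG00000102265) lies on the plus strand of chromosome X from 47582408 to 47586789. The values were 40.1, 42.6 and 40.1 CPM in CP+siNC and 43.2, 38.7 and 41.0 CPM in CP+siNAT10. The groups overlapped fully, with the highest and the lowest library both in CP+siNAT10. The means were 41.0 ± 1.42 and 40.9 ± 2.26 CPM (SD, n = 3 per group). The log2 fold change was -0.0026 with a 95% interval from -0.10 to 0.09 (edgeR quasi-likelihood test, adjusted p = 0.974), so a change of TIMP1 as large as that of TIMP2 lies outside its interval. SYN1, a neuronal gene that holds TIMP1 within an intron on the opposite strand, was at 0.659 ± 0.171 and 0.704 ± 0.107 CPM (SD, n = 3 per group) and was not called. ENSG00000283743, also over TIMP1 on that strand, was at 0.844 ± 0.250 and 0.506 ± 0.142 CPM (SD, n = 3 per group; edgeR adjusted p = 0.0686) and was called lower without CP+siNC replicate 3 (adjusted p = 0.0386) or CP+siNAT10 replicate 1 (adjusted p = 0.0434).

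TIMP3, the inhibitor that binds to the matrix, was practically uncounted (ENSG00000100234, chromosome 22). It had 0, 0 and 1 counts in CP+siNC and the same in CP+siNAT10. All 6 libraries were under the floor of 3 counts, and no fold is given.

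Compared per length, the members differed greatly in level. In CPM per kilobase of the gene length in the table, CP+siNC libraries held MMP14 at 49.1 ± 1.54, TIMP1 at 28.3 ± 0.981 and TIMP2 at 18.2 ± 0.514 (SD, n = 3). MMP7 followed at 2.68 ± 0.364, then MMP9 at 0.855 ± 0.0669, MMP19 at 0.659 ± 0.0866 and MMP1 at 0.485 ± 0.0103 (SD, n = 3). No neighbours in this order overlapped over the 3 libraries. In CP+siNAT10 the order was MMP14 at 43.5 ± 1.04, TIMP1 at 28.3 ± 1.56, TIMP2 at 22.6 ± 0.755, MMP7 at 6.40 ± 0.490 and MMP1 at 2.33 ± 0.0708, followed by MMP19 at 0.272 ± 0.0546 and MMP9 at 0.266 ± 0.0640 (SD, n = 3). MMP19 and MMP9 overlapped there, and the other neighbours did not. MMP1 thus moved from place 7 to place 5. With the longest coding transcript of GENCODE 29 as the length, MMP19 came before MMP9 in CP+siNC, and TIMP2 before TIMP1 in CP+siNAT10, so these orders depend on which length is used.

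**Figure D3:**
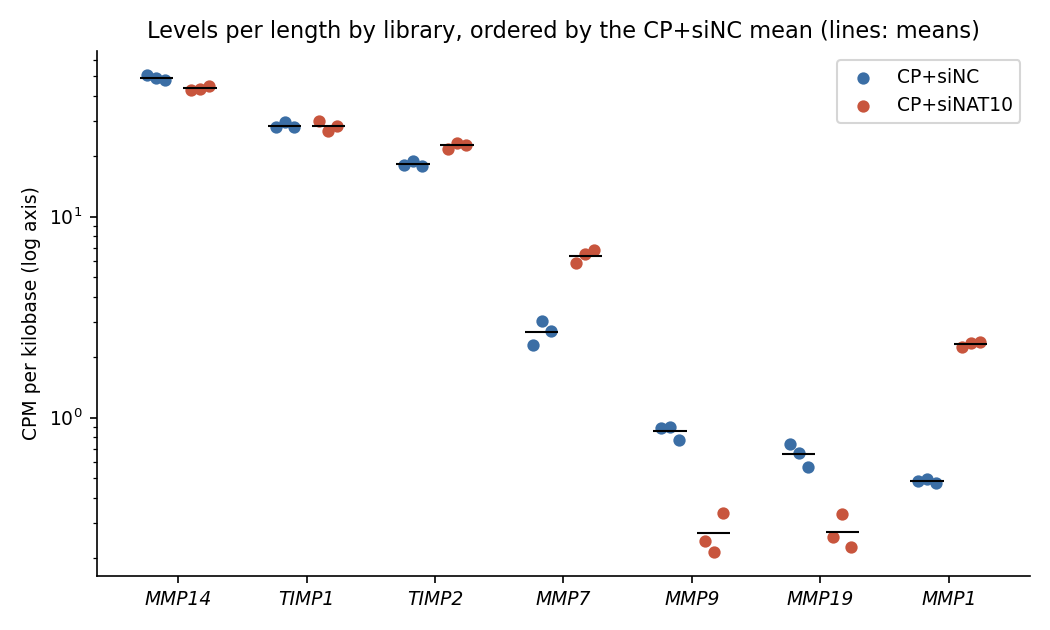
CPM per kilobase of the 7 tested members in each library, on a log axis and ordered by the CP+siNC mean, with lines at the means. MMP14, TIMP1 and TIMP2 lie above the other 4 members in both groups, and MMP1 passes MMP9 and MMP19 in CP+siNAT10.

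Summed over the 7 MMP genes, the level per length was 55.4, 53.9 and 52.5 CPM per kilobase in CP+siNC and 51.3, 52.9 and 54.5 in CP+siNAT10. The groups overlapped, although MMP14 alone did not. The share of MMP14 in the sum was 91.1 ± 0.730% in CP+siNC and 82.2 ± 0.662% in CP+siNAT10 (SD, n = 3). Without MMP14, the other 6 MMP genes summed to 4.79 ± 0.359 CPM per kilobase in CP+siNC and 9.42 ± 0.595 in CP+siNAT10 (SD, n = 3). The 3 TIMP genes summed to 46.6 ± 1.49 and 50.9 ± 0.815 CPM per kilobase (SD, n = 3 per group). The ratio of MMP14 to TIMP2 per length was 2.82, 2.59 and 2.68 in CP+siNC and 1.95, 1.85 and 1.97 in CP+siNAT10, with no overlap. With the transcript length of GENCODE 29 the other 6 MMP genes summed to 8.56 ± 0.719 and 17.5 ± 1.15 CPM per kilobase (SD, n = 3 per group). The sum over all 7 still overlapped, at 69.4 ± 1.71 and 71.3 ± 2.35 CPM per kilobase (SD, n = 3 per group), with the higher mean then in CP+siNAT10. The share of MMP14 was 87.7 ± 1.09% and 75.5 ± 0.890% by that length (SD, n = 3 per group), and its ratio to TIMP2 was 1.965 ± 0.0846 and 1.40 ± 0.0444 (SD, n = 3 per group), again lower in every silenced library. These sums describe mRNA and were not tested, and they say nothing of active enzyme, which depends on activation and inhibition.

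The other MMP and TIMP genes, 17 in all, were mostly low. In this list 12 genes did not have 10 counts in 3 libraries, and MMP8, MMP26 and TIMP4 had 0 counts in every library. Of the 5 tested, MMP13, MMP15 and MMP24 rose, none fell in edgeR or in DESeq2, and MMP21 and MMP25 were not called. Over all genes tested, 21.8% were called higher and 22.3% lower. The estimates of MMP21 and MMP25 were small (log2 fold change 0.05 and 0.04), and each changed sign with some CP+siNC library left out. The median log2 fold change of the 5 was 0.46. MMP24, a membrane-anchored MMP, was at 16.7, 19.9 and 16.3 CPM in CP+siNC and at 28.7, 30.8 and 30.1 CPM in CP+siNAT10. The silenced libraries were all clearly higher, with a log2 fold change of 0.76, SE 0.0647 (edgeR quasi-likelihood test, adjusted p = 1.14e-10). MMP15, also membrane-anchored, was at 3.66, 5.23 and 4.62 CPM in CP+siNC and at 5.37, 7.46 and 6.79 CPM in CP+siNAT10. The ranges nearly touched, and its log2 fold change was 0.53, SE 0.132 (edgeR quasi-likelihood test, adjusted p = 0.00152). MMP21 and MMP25 overlapped between the groups, at 4.27 ± 0.762 and 4.38 ± 0.251 CPM for MMP21 and at 2.59 ± 0.498 and 2.69 ± 0.180 CPM for MMP25 (SD, n = 3 per group). MMP25 is membrane-anchored as well, so of the 4 such MMP genes named here MMP14 fell, MMP15 and MMP24 rose and MMP25 was not called.

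**Figure D4:**
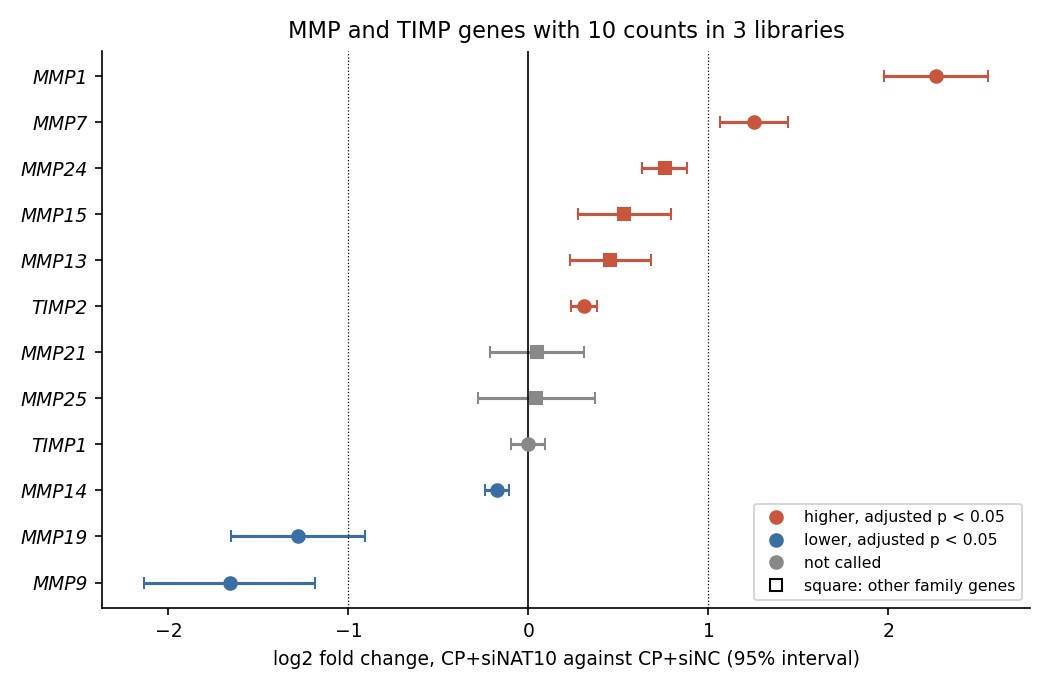
Log2 fold change, CP+siNAT10 against CP+siNC, with 95% intervals from the standard error, for the 7 tested members (circles) and the 5 other family genes tested (squares). Dotted lines mark a log2 fold change of 1 in size. The estimates run from -1.66 for MMP9 to 2.26 for MMP1.

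Pericellular proteolysis covers the plasminogen activators, their receptor and inhibitors, and proteins that bind or activate MMPs. Of its 25 genes 19 were tested, and 6 were higher and 8 lower in edgeR, with a median log2 fold change of -0.14. Beside the counts of this list and of those that follow, 21.8% of all genes tested were called higher and 22.3% lower. The split became 7 higher and 6 lower when library size alone set the scale. PLAU, the urokinase that makes plasmin, a known activator of MMP precursors, fell from 84.9 ± 0.893 to 48.8 ± 2.80 CPM (SD, n = 3 per group; log2 fold change -0.80). Its receptor PLAUR fell from 272 ± 3.68 to 169 ± 15.3 CPM (SD, n = 3 per group; log2 fold change -0.69). PLAT, the tissue-type activator that also makes plasmin, rose from 40.7 ± 1.84 to 57.4 ± 1.13 CPM (SD, n = 3 per group; log2 fold change 0.50). The activators thus moved in opposite directions. THBS1, a matrix glycoprotein that binds MMPs, fell to 46.4% of control (log2 fold change -1.11). LCN2, a tubular injury marker whose protein forms a complex with MMP9, rose from 7.40 ± 0.695 to 15.7 ± 0.863 CPM (SD, n = 3 per group; log2 fold change 1.08), opposite to MMP9. BSG, known as an inducer of MMPs, was the most abundant gene of the list at 351 ± 5.39 and 336 ± 19.4 CPM (SD, n = 3 per group) and was not called, although it was called lower without CP+siNAT10 replicate 1 (log2 fold change -0.11, edgeR adjusted p = 0.0209).

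The ADAM and ADAMTS proteases are relatives of the MMPs that shed surface proteins and cut proteoglycans. Of 28 genes 18 were tested, and 5 were higher and 6 lower in edgeR, with a median log2 fold change of -0.07. The 5 became 3 in DESeq2 and 3 without CP+siNAT10 replicate 2. ADAM19 rose from 35.3 ± 1.61 to 58.9 ± 2.05 CPM (SD, n = 3 per group; log2 fold change 0.74). The aggrecanase ADAMTS5 fell to 57.3% of control (log2 fold change -0.80) and ADAMTS12 to 64.6% (log2 fold change -0.63). ADAMTS1, the most abundant of the list, fell less, from 76.5 ± 0.771 to 64.4 ± 1.12 CPM (SD, n = 3 per group). As among the MMPs, directions were mixed within the family.

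Of 22 genes of matrix substrates of the MMPs 17 were tested, and 9 were higher and 4 lower in edgeR, with a median log2 fold change of 0.31. FN1, fibronectin, was the most abundant and rose from 858 ± 18.8 to 1396 ± 27.6 CPM (SD, n = 3 per group; log2 fold change 0.70). COL5A1, a chain of a fibrillar collagen, rose 2.10-fold (log2 fold change 1.07). The laminin chain LAMB3, made by epithelia, fell to 64.9% of control (log2 fold change -0.62).

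Among 20 transcription factors known to act on MMP promoters, all were tested, and 6 were higher and 9 lower in edgeR, with a median log2 fold change of -0.05. The split became 8 higher and 6 lower when library size alone set the scale, and the lower calls were also 6 in DESeq2, with no filter and without CP+siNAT10 replicate 3. ETS1 fell from 89.1 ± 2.35 to 48.0 ± 1.93 CPM (SD, n = 3 per group; log2 fold change -0.89), and ETV4, of the same family, fell to 58.4% of control (log2 fold change -0.78). Among the other ETS family genes listed, ETV1 and ETV5 were called lower (log2 fold change -0.29 and -0.13, edgeR adjusted p = 0.000318 and 0.0299). In contrast, ELF3 and ETS2 were called higher (log2 fold change 0.29 and 0.12, edgeR adjusted p = 9.97e-07 and 0.0357). The calls of ETV5 and ETS2 were thus near the limit of 0.05. ETV1, ETV5, ELF3 and ETS2 were not followed singly under other scalings, filters or fits. Of the AP-1 genes, JUNB fell to 72.1% of control (log2 fold change -0.47) and FOSL1 rose 1.21-fold (log2 fold change 0.27). JUND and FOSB were also called higher in edgeR (log2 fold change 0.33 and 0.25). FOSL2 was called slightly lower (log2 fold change -0.09, edgeR adjusted p = 0.0332), and FOS was not called. JUND, FOSB, FOSL2 and FOS were not followed singly under other processing either. JUN, the most abundant factor of the list, was at 314 ± 4.62 and 329 ± 12.1 CPM (SD, n = 3 per group) and was not called, although it was called with scaling by library size only (log2 fold change 0.11, adjusted p = 0.00810). The part of these factors in the changes of the MMP genes was not tested.

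**Figure D5:**
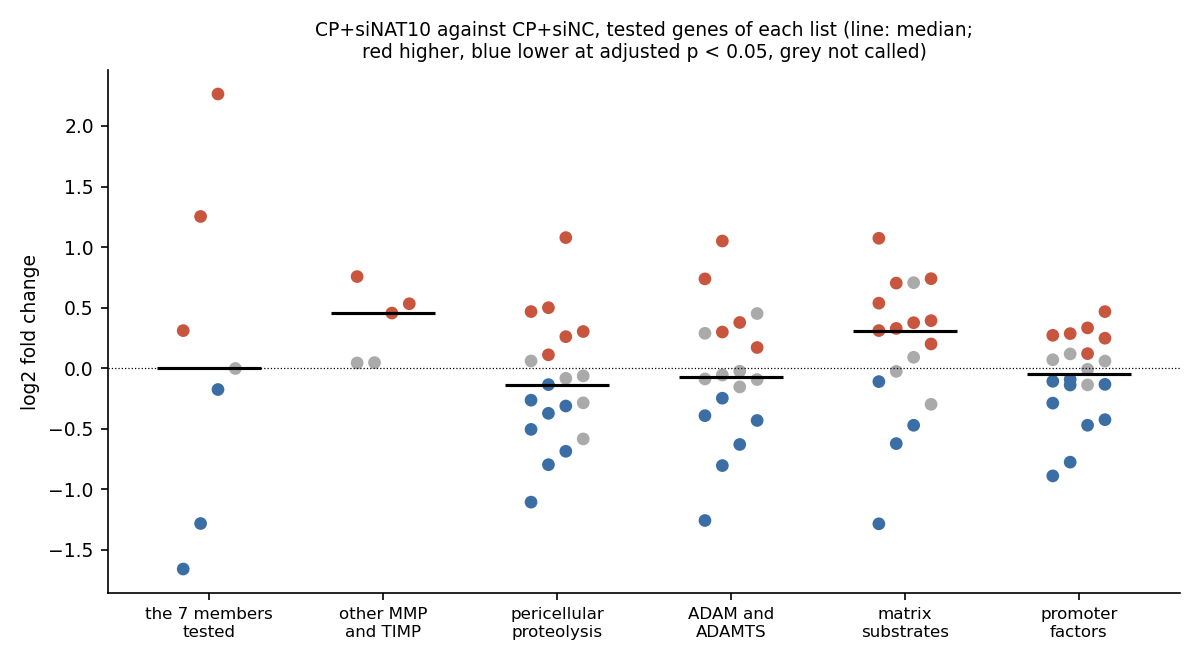
Log2 fold change of each tested gene of the members and of 5 related lists, with the median as a line. Red points are higher and blue points lower in CP+siNAT10 at an adjusted p under 0.05 (edgeR), and grey points are not called. MMP1 and MMP9 mark the ends of the range of all 6 lists.

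Markers were read for the identity of the cells. Of 13 tubular epithelial and HK-2 markers 8 were tested, and 2 were higher and 3 lower in edgeR, with KRT8 the most abundant at 1455 ± 21.1 and 1450.0 ± 18.7 CPM (SD, n = 3 per group) and not called. PAX8, a renal epithelial factor, rose to 150.2% of control and CDH2, the cadherin of proximal tubule, to 114.6%, while KRT18 fell to 77.8%, VIM to 88.8% and GGT1 to 82.5% of control. LRP2, CUBN, SLC34A1, ANPEP and CDH1, markers of differentiated proximal tubule or epithelium, did not reach 10 counts in 3 libraries. None of the 5 endothelial markers did either, and their summed level was at most 0.514 CPM in any library. Of 8 fibroblast markers 3 were tested and 1 was higher. The called gene was COL1A1, at 10.5 ± 0.536 and 13.6 ± 1.53 CPM (SD, n = 3 per group). LUM, a matrix proteoglycan, was at 11.2 ± 0.270 and 11.5 ± 2.02 CPM (SD, n = 3 per group) and was not called. COL3A1, the other gene tested, was at 0.416 ± 0.0976 and 0.690 ± 0.158 CPM (SD, n = 3 per group), with groups apart but no call (log2 fold change 0.71, edgeR adjusted p = 0.105). PDGFRB, too low to be tested, had 7, 8 and 6 counts in CP+siNC and 4, 2 and 3 in CP+siNAT10, and PDGFRA, DCN and FAP had at most 4 counts summed over a group. Summed over the 8, the level was 22.4, 23.9 and 22.1 CPM in CP+siNC and 23.6, 30.5 and 24.9 CPM in CP+siNAT10. Of 7 leukocyte markers 3 were tested and 2 were higher. Their sum, 199 to 217 CPM in CP+siNC and 266 to 289 CPM in CP+siNAT10, was almost all CD68, a lysosomal protein that epithelial cells also make. PTPRC, which defines leukocytes, was at 0.418 ± 0.0521 and 0.824 ± 0.446 CPM (SD, n = 3 per group), and its call (adjusted p = 0.0411, edgeR) was lost without CP+siNC replicate 1, 2 or 3 (adjusted p = 0.0932, 0.0719 and 0.103), without CP+siNAT10 replicate 2 (adjusted p = 0.404) and in DESeq2 (adjusted p = 0.135). The part of these shifts in the changes of the MMP and TIMP genes was not tested. In bulk RNA, fewer cells of a type and less RNA per cell cannot be told apart.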

How the data were processed

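RNA of 6 libraries of HK-2 cells was sequenced for the study, 3 with Cisplatin and negative control siRNA and 3 with Cisplatin and NAT10 siRNA, grouped here by their labels. The deposited values are raw counts per gene. The submitters' processing notes name Trimmomatic 0.36, STAR 2.5.3a, featureCounts of Subread 1.5.1 and edgeR 3.12.1, with the build GRCh38. The library kit marks strand and adds molecular identifiers meant to correct for duplicates, per the study's methods. Whether counting used strand and whether copies were merged before it is not given in the sources used here. Unmerged copies would be counted as separate reads.

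The tools were edgeR 4.0.16, which uses limma 3.58.1, under R 4.3.3. filterByExpr (minimum count 10, minimum total 15) kept 19874 of 62754 genes. Libraries were scaled by TMM, and groups were compared by the quasi-likelihood test without a block, with Benjamini-Hochberg adjustment over all genes tested. Calls were made at an adjusted p of 0.05, and separately with a log2 fold change over 1 in size. An exact permutation test of 3 against 3 libraries cannot go below p = 0.10, so single genes rest on the model across all genes. A standard error is the size of the log2 fold change over the square root of F. The biological coefficient of variation was 3.00%. Chi-square per gene was 1.73 to 2.54 within groups, above the 1 of counting noise alone. The programs were tested on simulated data in which few genes changed and the coefficient of variation was the same for all genes. Change across as many genes as were called here was not covered by that test.

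The members and lists were chosen with earlier results of these data known. Named genes were NAT10, all members, other MMP and TIMP genes with 10 counts in 3 libraries, genes overlapping a member with that count, and of each further list the 4 smallest p-values among called genes with groups apart and the most abundant gene. A gene that this rule names is not reported here. PLAT, ETV1, ETV5, ELF3, ETS2, JUND, FOSB, FOSL2 and FOS were chosen after their values were seen. So were markers and low or overlapping genes named beyond this rule. Alternatives were scaling by RLE, by upper quartiles or by library size, no filter, a stricter filter, a replicate block, each library left out, DESeq2 1.42.0 and glmTreat. Motifs and plots were made with Python 3.11.15, pandas 2.3.3 and matplotlib 3.10.9. No protein sequences were analysed here.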

Additional observations from a re-analysis of the deposited data

How the results depend on the processing

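The 6 calls among the tested members held, and TIMP1 stayed uncalled, under all 13 alternatives of scaling, filter, replicate block, library left out and DESeq2. The log2 fold change of MMP1 stayed between 2.25 and 2.30, of MMP7 between 1.16 and 1.35, of MMP9 between -1.89 and -1.53, of MMP19 between -1.45 and -1.16, of MMP14 between -0.20 and -0.14 and of TIMP2 between 0.29 and 0.35. Against a fold change of 2 as the null value, the members higher past the fold limit went from 2 to 1 and those lower from 2 to 0, and over all genes from 189 to 16 and from 275 to 40. With no filter 301 genes were higher past the limit, and with the stricter filter 123 were higher and 176 lower, since other numbers of genes were tested. ADAM and ADAMTS genes called higher were 3 in DESeq2 and 3 to 5 with a library left out, and the cause was not tested.

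The replicate block left 4208 genes called higher and 4318 lower, and members at 3 and 3. Same-numbered libraries did not strongly deviate together (correlations -0.0423, 0.0106 and -0.143). Differently numbered libraries had correlations from -0.115 to 0.147. A small effect shared by matched cultures could not be seen this way, so whether the numbers pair the libraries is not known.

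Some uncalled genes with estimates near 0 changed sign. The log2 fold change of TIMP1 was 0.0350 (library size only), 0.00872 (no filter) and -0.0391 to 0.0370 with a library left out, that of KRT8 was 0.0334, 0.00685 and -0.0201 to 0.00404, and that of ENSG00000279339, within TIMP2, was 0.0270, 0.00129 and -0.222 to 0.323. With a library left out, MMP21 was at -0.0311 to 0.193, MMP25 at -0.103 to 0.122, SYN1 at -0.0396 to 0.310, CEP295NL at -0.117 to 0.0170 and LUM at -0.108 to 0.127. With transcript length in place of the table's gene length, 2 members changed place in the order of each group, and the sums per length moved. Depth limits MMP2, MMP10 and TIMP3, at whose counts a small difference cannot be seen.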
